A study of Mus musculus with 8 samples.

Results

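The genes described here encode the integrins, the laminins and their close partners in the basement membrane: all protein-coding genes of the count table named as an integrin α chain (Itga), an integrin β chain (Itgb) or a laminin chain (Lama, Lamb, Lamc), together with the nidogens *Nid1* and *Nid2*, agrin (*Agrn*), perlecan (*Hspg2*) and dystroglycan (*Dag1*). Chosen by name, 42 genes matched among 28432 genes in the table, of which 17702 are protein coding: 18 integrin α chains, 8 integrin β chains, 11 laminin chains and 5 linkers or receptors. RNA of 8 mouse retina pairs taken at E15.5 was sequenced, with both retinas of 1 embryo as 1 sample, and the comparison asked how the inactivation of *Lhx2*, a LIM-homeodomain transcription factor of retinal progenitors, changed gene expression. The 4 control embryos were Lhx2flox/+ and the 4 CKO embryos were Lhx2flox/KO. All 8 embryos, controls included, were heterozygous for Hes1CreERT2, a tamoxifen-activated Cre placed in the Hes1 locus and active in cells that express *Hes1*, and all were exposed to tamoxifen given by gavage to the dam at E11.5, at 0.15 to 0.2 mg per g of body weight. The controls thus also carried recombined cells, with 1 *Lhx2* allele left, and every embryo had a changed *Hes1* allele.

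A basement membrane is a thin sheet of extracellular matrix in which laminin, a trimer of an α, a β and a γ chain, forms a polymer that is linked by nidogen, agrin and perlecan to collagen IV and to the cell surface. Integrins are receptors made of 1 α and 1 β chain, and dystroglycan is a second laminin receptor. Around the embryonic retina such sheets form the inner limiting membrane, on which the endfeet of progenitors rest, Bruch's membrane on the side of the pigment epithelium, and the walls of the hyaloid vessels.

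Library totals were 13143587 to 15063867 counts in the controls and 13955259 to 19099937 in the CKO. The *Lhx2* RNA itself had 3081 to 3631 normalized counts in the controls and 2557 to 2868 in the CKO, a log2FC of -0.27 (adjusted p = 0.00502), and gene counts include reads from exons outside the deleted part, so this value does not measure the deletion. Markers of the neural retina summed to 36005 to 38054 normalized counts in the controls and 31155 to 31862 in the CKO. The 9 genes of this list were split, with 2 rising and 3 falling by edgeR (55.6% called, against 8.61% of all genes). Their log2FC ranged from -2.73 to 0.50, with a median of 0.06. The lens list summed to 35.4 to 55.4 in the controls and 56.0 to 117 in the CKO, each CKO sample above each control. Its gene *Lim2* was at 0 in every sample. Of the lens list 2 genes were tested, *Cryba1* (log2FC 2.83, adjusted p = 0.00132, past the filter through the CKO alone) and *Bfsp1* (-0.03, adjusted p = 0.932), and the part of lens RNA in the results was not tested. Markers of the pigment epithelium (*Rpe65* had at most 1.04 normalized counts in any sample) and of the periocular mesenchyme were low but present, and their values stand beside the genes below. Because whole retinas were sequenced, fewer cells of a type and less RNA per cell cannot be told apart. Control replicate 3 and CKO replicate 1 stood apart, with a median absolute log2 difference from the mean of the other samples of their group of 0.159 and 0.140 over the genes tested, against 0.0737 to 0.101 for the other 6 samples.

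The promoters of 4 of the 5 genes that passed the test are shown because these are the genes on which the account turns. RefSeq (GRCm38.p6) gave windows for 27 of the 42 genes, and each sequence is the 250 bases just upstream of a start annotated by RefSeq, 5′ to 3′ on the strand of the gene. These starts can differ from the gene coordinates given below, which are those of GENCODE M21. The *Itgb8* window lies wholly within those coordinates and the *Lamb2* window partly, while the *Itgb5* and *Lama5* windows lie just outside them. Capitals mark matches of GGGCGG, the core of the GC box, or of CCAAT, on either strand, so that a match on the opposite strand is printed as its reverse complement. The windows lie at chr16:33829415-33829664 (plus strand) for *Itgb5*, chr12:119238277-119238526 (minus strand) for *Itgb8*, chr2:180225860-180226109 (minus strand) for *Lama5* and chr9:108479612-108479861 (plus strand) for *Lamb2*.
Itgb5: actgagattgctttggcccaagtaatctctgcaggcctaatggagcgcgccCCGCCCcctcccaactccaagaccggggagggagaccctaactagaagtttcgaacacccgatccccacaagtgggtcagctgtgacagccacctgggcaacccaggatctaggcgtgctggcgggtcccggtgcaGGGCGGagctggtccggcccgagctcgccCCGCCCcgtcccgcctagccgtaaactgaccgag
Itgb8: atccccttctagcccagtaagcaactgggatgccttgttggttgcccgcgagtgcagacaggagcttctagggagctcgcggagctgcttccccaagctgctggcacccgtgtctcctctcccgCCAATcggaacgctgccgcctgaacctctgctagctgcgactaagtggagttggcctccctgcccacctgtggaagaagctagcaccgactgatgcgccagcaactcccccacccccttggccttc
Lama5: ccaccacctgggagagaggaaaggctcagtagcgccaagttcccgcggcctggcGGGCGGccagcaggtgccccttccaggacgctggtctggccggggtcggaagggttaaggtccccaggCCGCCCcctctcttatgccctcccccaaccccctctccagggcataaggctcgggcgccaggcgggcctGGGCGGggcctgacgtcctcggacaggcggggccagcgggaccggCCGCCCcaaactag
Lamb2: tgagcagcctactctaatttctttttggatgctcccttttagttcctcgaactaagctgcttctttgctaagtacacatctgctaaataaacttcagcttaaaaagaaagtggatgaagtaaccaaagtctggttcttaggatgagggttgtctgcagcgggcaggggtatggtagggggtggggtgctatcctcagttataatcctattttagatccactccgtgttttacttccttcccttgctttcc

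The *Lama5* window held 4 GC boxes and the *Itgb5* window held 3, while the *Itgb8* window held 1 CCAAT and the *Lamb2* window held neither motif. GC content was 72.4% in the *Lama5* window, 65.2% for *Itgb5*, 62.4% for *Itgb8* and 43.6% for *Lamb2*, the last with 3 CpG dinucleotides against 19 for *Lama5*. Among all 32851 windows of this length, GGGCGG was present in 32.7% and CCAAT in 33.8% on either strand, and among the 32 windows of the integrin, laminin and linker genes GGGCGG was present in 15 and CCAAT in 7. TAATTA, the core bound by many homeodomain proteins, was present in 4.84% of all windows and in 0 of these 32, and TATAAA in 12.4% of all windows and in 0 of these 32. None of the 4 motifs contains another on either strand. A match, or its absence in 250 bases, is a description of these letters.

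Of the 42 genes, 29 passed the filter, a minimum of 20 normalized counts in 3 or more samples, and 5 of the 29 (17.2%) passed the test at an adjusted p under 0.001 (edgeR), compared with 8.61% of all 13891 genes tested. *Itgb8* rose (1 of 29, with 3.64% of all genes rising) and *Itgb5*, *Itga6*, *Lamb2* and *Lama5* fell (4 of 29, with 4.97% of all genes falling). At an adjusted p under 0.05, 14 of the 29 differed (48.3%, beside 33.3% of all genes), with 6 higher in the CKO (15.9% of all genes) and 8 lower (17.4% of all genes). The groups did not overlap for 13 genes (5 higher and 8 lower in the CKO), as for 33.8% of all genes, and DESeq2 called 11 genes (5 higher and 6 lower), with 17.2% called among all genes. The median log2FC of the 29 was -0.06 (0.01 over all genes tested) and their median absolute log2FC was 0.36 (0.18 over all genes tested), so changes in both directions were present. Without control replicate 3 the number passing at 0.001 was 8, and without both control replicate 3 and CKO replicate 1 it was 9 (3 higher and 6 lower), with 11.2% and 15.4% of all genes called. Without control replicate 1 or 2, or without CKO replicate 2, 3 or 4, it was 3, with 4.96% to 5.92% of all genes called. Genes below the filter were not tested, and some genes passed it through 1 group alone, as is said of each below.

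**Figure D1:**
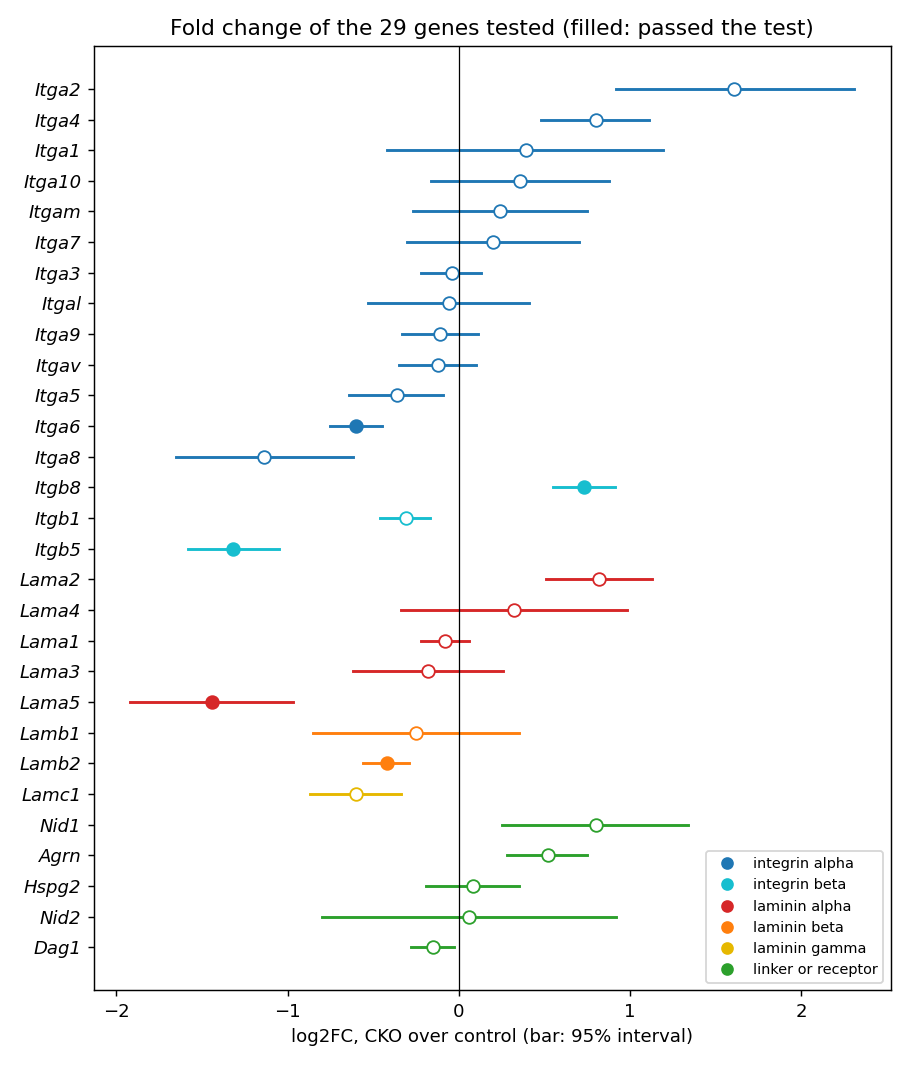
Fold change of the 29 tested genes, grouped by role. The x axis gives the log2FC of the CKO over the control, each bar is its 95% interval, and filled points are the 5 genes that passed edgeR's test at an adjusted p under 0.001; *Itgb5* (-1.32) and *Lama5* (-1.44) lie farthest to the left among the filled points, and *Itgb8* (0.73) is the filled point to the right of 0.

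Among the integrin β chains, *Itgb5* fell and *Itgb8* rose. Both encode partners of the αv chain: αvβ5 binds vitronectin and serves phagocytosis by the pigment epithelium, and αvβ8 releases active TGF-β from its latent complex and is made by neuroepithelial cells and glia. *Itgb5* (ENSMUSG00000022817, chr16:33829665-33949338, plus strand, GRCm38) had 1095, 1157, 1343 and 1117 normalized counts in the controls (replicates 1 to 4, here and below) and 359, 515, 575 and 445 in the CKO. Every CKO embryo was far below every control, with no overlap. The log2FC was -1.32 (SE 0.120, adjusted p = 1.6e-05), a CKO level of 0.401 times the control. *Itgb8* (ENSMUSG00000025321, chr12:119158022-119238802, minus strand) had 1338, 1368, 1078 and 1460 normalized counts in the controls and 2096, 2233, 2214 and 2157 in the CKO. The CKO samples lay close together and above all controls, of which replicate 3 was the lowest. The log2FC was 0.73 (SE 0.0802, adjusted p = 5.4e-05), or 1.66 times the control. Both genes passed the test under all 19 alternative settings tried, with a log2FC of -1.42 to -1.14 for *Itgb5* and 0.65 to 0.79 for *Itgb8*.

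The ratio of *Itgb8* to *Itgb5* normalized counts was 1.22, 1.18, 0.803 and 1.31 in the controls and 5.84, 4.33, 3.85 and 4.85 in the CKO, so that the ranges were well apart. The third abundant β chain, *Itgb1*, pairs with most α chains, including those that bind laminin. It had 3431 to 4033 normalized counts in the controls and 2718 to 3216 in the CKO without overlap, with a log2FC of -0.31 (SE 0.0676), and it missed the cutoff (adjusted p = 0.00432). Without control replicate 3 it passed (adjusted p = 5.1e-04, log2FC -0.36), at a setting where 11.2% of all genes were called. Leaving out any other 1 library left it above the cutoff (adjusted p from 0.00865 to 0.0145, log2FC from -0.33 to -0.26).

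*Itgb5* is known to be made in the pigment epithelium. Of 8 markers of these cells, 4 passed the filter and 1 of these fell (25.0%, against 4.97% of all genes falling). It was *Pmel*, a melanosome protein, at 115 to 202 normalized counts in the controls and 37.3 to 55.8 in the CKO. The other 3, *Tyr*, *Dct* and *Tyrp1*, missed the cutoff. *Tyr* had at most 19.7 normalized counts in the CKO, *Dct* 15.3 and *Tyrp1* 19.8, so these 3 passed the filter through the controls alone and their being lower was built into their being tested. The list summed to 239 to 391 normalized counts in the controls and to 100.1, 116, 118 and 457 in the CKO, the last mostly *Ttr* (379.9 in CKO replicate 4). *Itgb5* had 1178 ± 113 normalized counts (SD, n = 4) in the controls. The part of these cells in the fall of *Itgb5* was not tested.

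**Figure D2:**
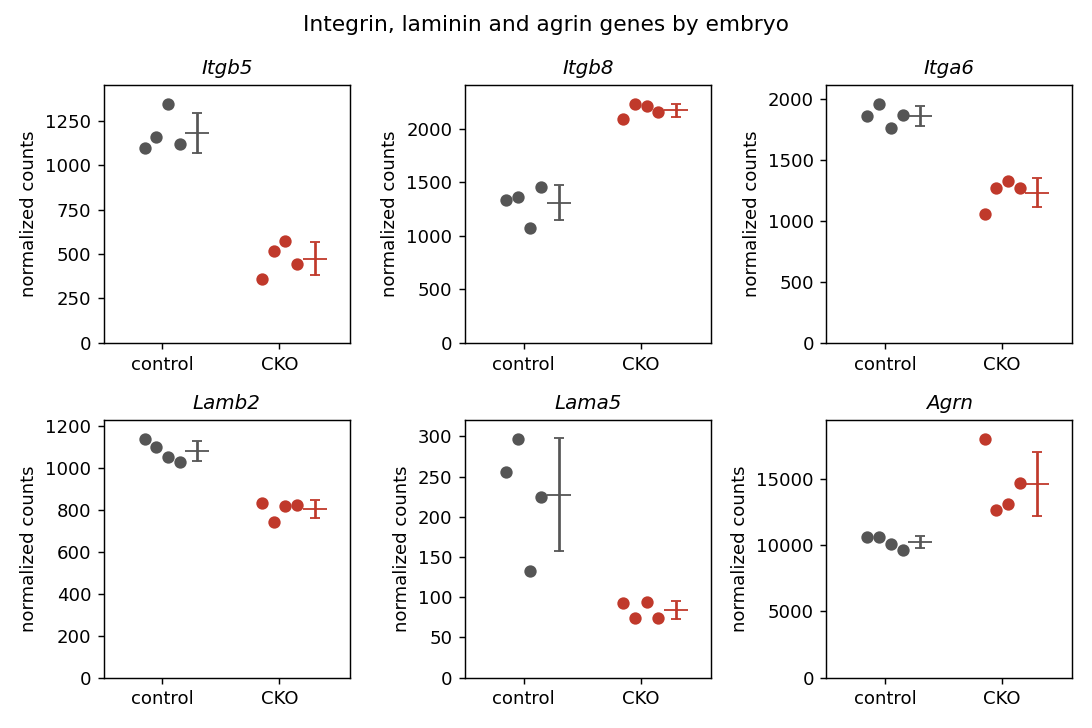
Normalized counts of the 5 genes that passed the test and of *Agrn* in each embryo, with control in grey and CKO in red, points from left to right in the order of the replicate numbers, and the mean ± SD (n = 4) beside the points; every y axis starts at 0. No gene shown has overlapping groups, and CKO replicate 1 is the highest for *Agrn* (18035) and the lowest for *Itgb5* (359) and *Itga6* (1058).

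To compare genes with one another, counts were divided by exon length (reads per kilobase of exon, scaled to the size of the library, RPKM). On this scale *Itgb1* had the highest level of the β chains in the controls (61.7 ± 4.68), followed by *Itgb5* (21.8 ± 2.01) and *Itgb8* (7.80 ± 1.00), and in the CKO the order of the last 2 was the opposite, with *Itgb8* at 12.9 ± 0.251 and *Itgb5* at 8.77 ± 1.67 (SD, n = 4 each). Of the summed level per length of the 8 β chains, *Itgb5* made up 21.7% to 28.5% in the controls and 10.5% to 14.0% in the CKO, *Itgb8* 7.34% to 9.16% and 17.3% to 19.7%, and *Itgb1* 63.3% to 69.2% and 67.8% to 70.7%. The sum itself was 91.9 ± 3.57 in the controls and 72.0 ± 5.12 in the CKO (RPKM).

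The other 5 β chains were below the filter, and their reads are given as sums over the 4 samples of a group. *Itgb2*, the β chain of leukocyte integrins, had 50 in the controls and 44 in the CKO, *Itgb3*, which platelets carry, 46 and 58, *Itgb4*, the hemidesmosome chain, 47 and 43, and *Itgb7* 18 and 15. *Itgb6*, an epithelial partner of αv, had 2 reads in the controls and 0 in the CKO, both within the limit of 3 reads that a count of 0 allows (counting error only).

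Of the integrin α chains, 13 of 18 were tested and 1, *Itga6*, passed the test (7.69%, near the 8.61% of all genes). *Itga6* (ENSMUSG00000027111, chr2:71745616-71858416, plus strand) encodes the α6 chain, which pairs with β1 or β4 as a laminin receptor. It had 1862, 1959, 1760 and 1869 normalized counts in the controls and 1058, 1274, 1325 and 1268 in the CKO. All 4 CKO values were below all controls, and CKO replicate 1 was the lowest. The log2FC was -0.60 (SE 0.0677, adjusted p = 6.8e-05), or 0.661 times the control, and the gene passed the test under all 19 alternatives (-0.63 to -0.54).

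Per length, *Itga6* had the highest level of the α chains in both groups (RPKM of 13.6 ± 0.671 and 8.98 ± 0.792), and its share of the summed α chain level was 45.0% to 47.3% in the controls and 31.7% to 38.8% in the CKO. The next levels in the controls were *Itga5* (3.53 ± 0.517), the fibronectin receptor chain, *Itgav* (3.19 ± 0.465), the partner of β5 and β8, and *Itga3* (3.06 ± 0.191), another laminin receptor chain, and these 3 lay within their spread of one another. *Itgav* and *Itga3* missed the test, with a log2FC of -0.12 (95% interval -0.35 to 0.10) and of -0.04 (-0.22 to 0.13), which bounds any change in *Itgav* to between 0.785 and 1.07 times the control. *Itga5* had a log2FC of -0.36 (interval -0.64 to -0.09, adjusted p = 0.042), and its groups overlapped.

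*Itga4*, whose α4 chain binds VCAM1 and fibronectin, was higher in the CKO without passing the cutoff. It had 302, 343, 203 and 318 normalized counts in the controls and 543, 436, 494 and 556 in the CKO. The groups did not overlap, and control replicate 3 was the lowest. The log2FC was 0.80 (SE 0.144, adjusted p = 0.00151). Leaving out control replicate 3 gave 0.66 with an adjusted p of 5.8e-04, below the cutoff, at a setting where 11.2% of all genes were called. Leaving out any other 1 library left it above the cutoff (adjusted p from 0.00186 to 0.00651). Its share of the α chain level per length was 3.54% to 5.32% in the controls and 8.50% to 10.5% in the CKO. Exons of *Itga4* share 1124 bases with *Cerkl*, which runs in the opposite direction, and the kit does not mark strand, so that reads from these bases could come from either gene. *Cerkl* itself had 34 to 52 counts in the controls and 40 to 74 in the CKO.

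A pair of low α chains differed in opposite directions and also missed the cutoff. *Itga2*, a collagen receptor chain, had 10.1, 3.12, 9.13 and 8.10 normalized counts in the controls and 23.8, 20.7, 20.8 and 28.8 in the CKO (log2FC 1.61, interval 0.92 to 2.31, adjusted p = 0.00255). *Itga8*, whose α8 chain binds nephronectin, had 30.2, 29.2, 24.0 and 24.3 in the controls and 10.3, 14.6, 14.2 and 9.60 in the CKO (-1.14, interval -1.65 to -0.62, adjusted p = 0.00353). Each passed the filter through 1 group alone, *Itga2* through the CKO and *Itga8* through the controls, so a difference in that direction was built into their being tested.

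The other 6 tested α chains had adjusted p-values of 0.269 to 0.862 and overlapping groups. They were *Itga10* (log2FC 0.36, interval -0.16 to 0.88) and *Itga1* (0.39, -0.42 to 1.19), both collagen receptor chains, *Itgam* (0.24, -0.27 to 0.75) and *Itgal* (-0.06, -0.53 to 0.41), both of leukocytes, *Itga7* (0.20, -0.30 to 0.70), a laminin receptor chain of muscle, and *Itga9* (-0.11, -0.33 to 0.11), which binds tenascin. The reads of *Itgam*, *Itga1* and *Itga10* share exon bases with another annotated gene on the same strand and are uncertain to that extent. The wide intervals of the low genes show that changes of less than about that size were not detectable at this depth. Markers of macrophages and microglia, which carry *Itgam*, summed to 927 to 1094 normalized counts in the controls and 775 to 1027 in the CKO. Of these 10 markers 0 were called by edgeR (8.61% of all genes), 0 had an unadjusted p under 0.05, and DESeq2 and limma voom called 0.

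The 5 α chains below the filter were *Itga11* (25 reads over the controls and 21 over the CKO), *Itga2b* of platelets (73 and 76), *Itgae* of lymphocytes (52 and 63), *Itgad* (2 and 3) and *Itgax* of myeloid cells (14 and 48). *Itgax* had 7.05, 1.04, 4.57 and 2.03 normalized counts in the controls and 10.3, 13.8, 9.85 and 10.7 in the CKO. Its groups did not overlap, but it was not tested.

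**Figure D3:**
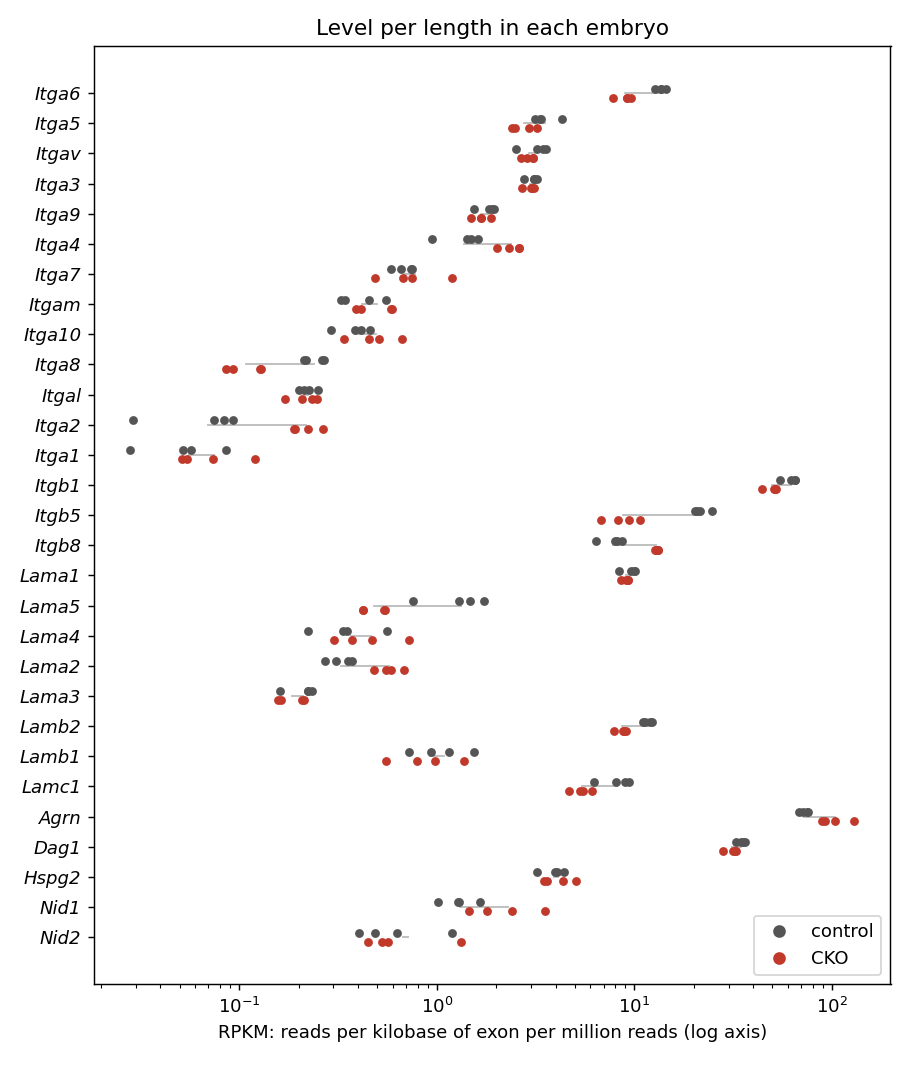
Level per length of the 29 tested genes in each embryo, on a log axis of RPKM, with control in grey and CKO in red and a line joining the group means. The levels span from below 0.1 for *Itga1* and *Itga2* in the controls to above 100 for *Agrn* in the CKO.

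Of 8 laminin chains tested, *Lama5* and *Lamb2* fell (25.0%, against 4.97% of all genes) and 0 rose by edgeR at an adjusted p under 0.001 (3.64% of all genes). At an unadjusted p under 0.05, 1 was higher and 3 were lower, DESeq2 called 1 higher and 3 lower, and limma voom called 0 higher and 1 lower. *Lama5* (ENSMUSG00000015647, chr2:180176373-180225859, minus strand) encodes the α5 chain of laminin-511 and laminin-521, found in many epithelial and vessel basement membranes. It had 256, 297, 132 and 225 normalized counts in the controls and 92.9, 74.1, 94.1 and 73.6 in the CKO. Control replicate 3 lay between the other controls and the CKO, and the groups did not overlap. The log2FC was -1.44 (SE 0.216, adjusted p = 4.5e-04), or 0.368 times the control. The call was lost by leaving out any 1 library except control replicate 3 (adjusted p from 0.00102 to 0.00244, log2FC from -1.51 to -1.28), and with limma voom (0.00154). Without control replicate 3 the log2FC was -1.62 (adjusted p = 1.7e-05).

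*Lamb2* (ENSMUSG00000052911, chr9:108479736-108490530, plus strand) encodes the β2 chain, which is found in the retinal basement membranes and between photoreceptors. It had 1137, 1099, 1051 and 1027 normalized counts in the controls and 829, 741, 815 and 824 in the CKO. The fall was small and regular, with all CKO values below all controls. The log2FC was -0.42 (SE 0.0602, adjusted p = 3.1e-04), or 0.745 times the control. The call was lost without control replicate 1 or 2 or without CKO replicate 2, 3 or 4 (adjusted p from 0.00114 to 0.00187, log2FC from -0.44 to -0.38).

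*Lamc1* encodes the γ1 chain shared by most laminins. It had 1189, 1125, 789 and 1018 normalized counts in the controls and 579, 675, 696 and 767 in the CKO. The groups did not overlap, with control replicate 3 near CKO replicate 4. The log2FC was -0.60 (SE 0.121, adjusted p = 0.00278), so the gene missed the cutoff. Without control replicate 3 it passed (-0.71, adjusted p = 1.2e-04), at a setting where 11.2% of all genes were called. Leaving out any other 1 library left it above the cutoff (adjusted p from 0.00424 to 0.00997). *Lama2*, the α2 chain of muscle and glial basement membranes, was the laminin gene that was higher. It had 67.5, 91.6, 77.6 and 88.1 normalized counts in the controls and 136, 146, 119 and 171 in the CKO. All CKO values were above all controls, and the log2FC of 0.82 (SE 0.141) missed the cutoff closely (adjusted p = 0.00112).

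*Lama1*, the α1 chain of laminin-111, an early laminin required for the inner limiting membrane, differed little. It had 1239 to 1490 normalized counts in the controls and 1272 to 1367 in the CKO, with a log2FC of -0.08 whose interval of -0.22 to 0.06 bounds the CKO level to between 0.858 and 1.04 times the control. *Lama3* (-0.18, interval -0.62 to 0.26), *Lama4* (0.32, -0.34 to 0.98) and *Lamb1* (-0.25, -0.85 to 0.35) had overlapping groups and wider intervals. *Lamb3* and *Lamc3* were below the filter, with 6 and 22 reads over the controls and 21 and 22 over the CKO.

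Per length, *Lama1* made up 79.1% to 84.7% of the summed laminin α level in the controls and 82.3% to 84.9% in the CKO, *Lama5* 7.70% to 13.7% and 3.77% to 5.12%, and *Lama2* 2.22% to 3.14% and 4.38% to 6.09%. Among the β chains *Lamb2* made up 88.8% to 93.9% in the controls and 86.3% to 93.5% in the CKO, and *Lamc1* made up at least 96.7% of the γ chains in every sample. In the controls, 1 α, 1 β and 1 γ chain thus held most of the reads of their class, namely *Lama1* (RPKM of 9.54 ± 0.811), *Lamb2* (11.7 ± 0.559) and *Lamc1* (8.19 ± 1.43). In the CKO *Lama1* was at 9.03 ± 0.335, *Lamb2* at 8.69 ± 0.519 and *Lamc1* at 5.41 ± 0.587 (SD, n = 4 each).

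**Figure D4:**
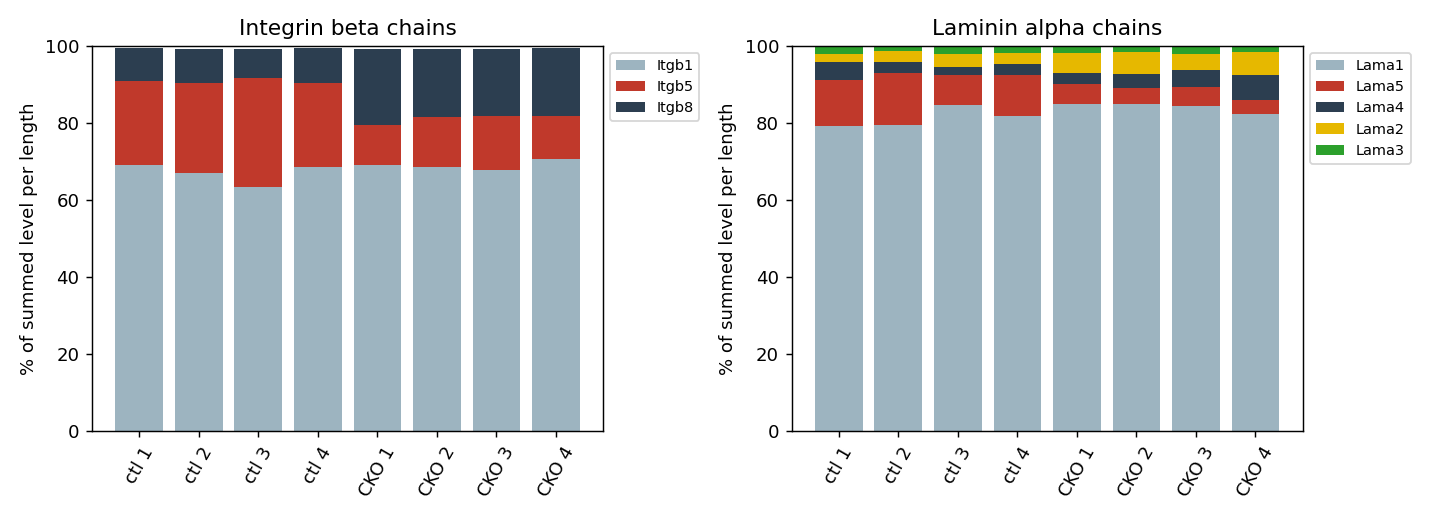
Composition of the integrin β chains (left) and laminin α chains (right) in each embryo, as percent of the summed level per length of the class; the β chains not drawn fill the gap to 100. The *Itgb8* share (dark, left) is 7.34% to 9.16% in the controls and 17.3% to 19.7% in the CKO, and *Lama5* (red, right) is 7.70% to 13.7% and 3.77% to 5.12%.

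Of the 5 linkers and receptors, 0 passed edgeR's test at an adjusted p under 0.001, with 8.61% of all genes passing. At an unadjusted p under 0.05, 2 were higher and 1 was lower, while DESeq2 called 1 higher and limma voom called 0. *Agrn*, the heparan sulfate proteoglycan agrin, which ties laminin to dystroglycan and is best known for gathering acetylcholine receptors at the nerve-muscle synapse, had the highest level per length of the tested genes in both groups (RPKM of 72.6 ± 3.52 and 104 ± 18.5). It had 10595, 10649, 10090 and 9673 normalized counts in the controls and 18035, 12663, 13075 and 14676 in the CKO. All CKO values were above all controls, and they were spread more widely. The log2FC was 0.52 (SE 0.105, adjusted p = 0.00314). With both control replicate 3 and CKO replicate 1 left out, the difference was smaller and passed the cutoff (0.38, adjusted p = 3.8e-04). At that setting 15.4% of all genes were called. Leaving out any 1 library left *Agrn* above the cutoff (adjusted p from 0.00132 to 0.0125).

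*Dag1*, whose product is cut into the α and β subunits of dystroglycan, had 3173 to 3502 normalized counts in the controls and 2676 to 3167 in the CKO. Its groups did not overlap by a narrow margin, and the log2FC of -0.15 (interval -0.28 to -0.03) did not pass either cutoff (adjusted p = 0.0591). *Hspg2*, the proteoglycan perlecan, had a log2FC of 0.08 (interval -0.19 to 0.35) and overlapping groups. *Nid1*, which joins the laminin and collagen IV networks, had 174, 135, 108 and 136 normalized counts in the controls and 187, 154, 255 and 373 in the CKO. CKO replicate 4 was the highest and the groups overlapped. The log2FC was 0.80 (SE 0.247, adjusted p = 0.0282), and without CKO replicate 4 it was 0.51 (adjusted p = 0.0708). *Nid2* had a log2FC of 0.06 (interval -0.80 to 0.92). Its exons share 437 bases with *Rtraf* on the opposite strand, which had 1034 to 1401 counts against 28 to 97 of *Nid2*, so reads from these bases could come from either gene.

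*Lama4*, *Nid2* and *Itga1*, together with *Lamb1* and *Nid1*, varied among embryos of the same group and are named here for that spread. The α4 laminin chain and the nidogens are known components of vessel walls. Of 10 endothelial markers, 9 were tested and 2 fell (22.2%, against 4.97% of all genes falling). These were *Kdr*, at 3943 to 4272 normalized counts in the controls and 2479 to 3145 in the CKO, and *Cldn5*, at 153 to 202 and 39.6 to 84.3. The whole list, of which *Kdr* takes most counts, summed to 4473 to 4802 in the controls, with control replicate 4 the highest, and to 2738 to 3732 in the CKO. It did not share the order of these genes over embryos, and neither did *Kdr* or *Cldn5* alone, for which every CKO value was below every control. The other 8 markers, grouped after their values were seen, summed to 502, 272, 242 and 376 in the controls and to 214, 269.7, 416 and 585 in the CKO.

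In that sum CKO replicate 4 was the highest and control replicate 1 the next, with CKO replicate 1 the lowest and control replicate 3 next to it. For *Lama4* (103 in control replicate 1, 132 in CKO replicate 4, 41.1 in control replicate 3), for *Nid2* (93.6, 104 and 32.0) and for *Itga1* (24.2, 34.1 and 7.99) the same pair of embryos was the highest and control replicate 3 was the lowest. *Lamb1* was the highest in control replicate 1 (233) and next in CKO replicate 4 (208). *Hspg2* was also the highest in CKO replicate 4 (1102) and the lowest in control replicate 3 (699.8). Other genes had another order. *Lama5* was the lowest in CKO replicate 4 (73.6), and for *Lamc1* and *Itgb1* every CKO value was below every control. Markers of pericytes summed to 1384 to 1792 normalized counts in the controls and 1506 to 1950 in the CKO. Most of these counts were *Notch3* (1018 to 1242 and 1160 to 1278). Of 5 tested, 0 were called by edgeR (8.61% of all genes), while at an unadjusted p under 0.05 *Abcc9* was higher (log2FC 1.14) and *Pdgfrb* lower (-0.40). *Rgs5* had 203, 151, 48.0 and 159 normalized counts in the controls and 48.5, 114, 223 and 287 in the CKO. Markers of red blood cells summed to 377 to 2398 and 599 to 1917, with control replicate 1 the highest and control replicate 3 the lowest. The part of endothelial cells, pericytes and blood cells in these values, and in the *Nid1* difference, was not tested.

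**Figure D5:**
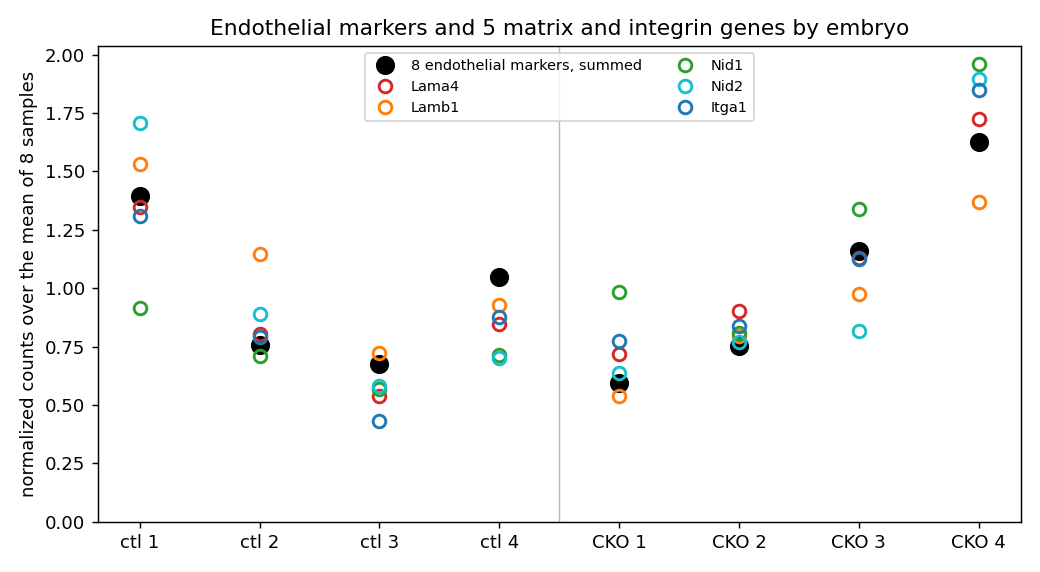
The sum of 8 endothelial markers (black) and the normalized counts of *Lama4*, *Lamb1*, *Nid1*, *Nid2* and *Itga1* (open circles) in each embryo, each divided by its mean over the 8 samples, with controls to the left of the grey line and CKO to the right. The 8 markers were grouped after their values were seen. They leave out *Kdr* and *Cldn5*, for which every CKO value was below every control, and the whole list of 10 did not share the order drawn. CKO replicate 4 is the highest for the sum (585 normalized counts) and for all genes drawn except *Lamb1*. *Lama5*, which is not drawn, was the lowest in that embryo (73.6).

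Other basement membrane proteins included 26 genes in the table, of which 22 were tested and 6 fell (27.3%, against 4.97% of all genes falling), with 0 rising by edgeR, 4 higher at an unadjusted p under 0.05, 2 called higher by DESeq2 and 1 by limma voom. The 5 with the smallest p among them were *Frem1* (1061 ± 127 normalized counts in the controls and 262 ± 49.0 in the CKO, log2FC -2.03), which forms a complex at epithelial basement membranes, *Efemp1* (-1.17) and *Efemp2* (-0.80), both fibulin-type proteins, *Smoc1* (-1.04), a calcium-binding matrix protein, and *Fbln2* (-1.32), a fibulin that binds laminin and nidogen. The main chains of collagen IV, the other network of the sheet, are named here after their values were seen and did not pass the test, with a log2FC of 0.12 (interval -0.12 to 0.36) for *Col4a1* and 0.24 (0.03 to 0.45, adjusted p = 0.0705) for *Col4a2*. The other collagen IV chains tested were lower and also missed the cutoff of edgeR. These were *Col4a5* (-0.46, adjusted p = 0.0044, no overlap), *Col4a6* (-0.40, adjusted p = 0.0275) and *Col4a4* (-1.69, adjusted p = 0.00262). *Col4a4* passed the filter through the controls alone. *Col4a3* was below the filter, with 43 reads over the controls and 20 over the CKO. The median log2FC of the 22 was -0.32, against 0.01 over all genes. At an adjusted p under 0.05, 10 of the 22 were lower and 2 higher (54.5% in all, beside 33.3% of all genes). The higher 2 were *Fras1* (log2FC 0.84, adjusted p = 0.00112, no overlap) and *Smoc2* (2.38, adjusted p = 0.00528). *Smoc2* passed the filter through the CKO alone. *Frem2* had a log2FC of -0.23 (adjusted p = 0.317). Without control replicate 3, 10 of the list were called, with 11.2% of all genes called. Beside these falls, the periocular mesenchyme list, whose cells make fibulins and collagens, summed to 94.2 to 175 normalized counts in the controls and 39.7 to 117 in the CKO. Most of this sum was *Col1a2* in the controls, and without it the list summed to 59.4, 35.4, 42.2 and 24.3 in the controls and 29.4, 36.2, 52.5 and 80.0 in the CKO, with overlap. Of its 9 genes 2 were tested, *Col1a2* fell (69.9 to 116 and 10.3 to 37.3) and *Col1a1* had a log2FC of -0.01. *Col3a1* had 36 reads over the controls and 68 over the CKO and *Foxc1* 22 and 30, while *Foxc2*, *Twist1*, *Dcn* and *Lum* were near 0. The part of such cells was not tested.

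On the cell side, 4 of 27 tested genes of the integrin adhesion complex fell (14.8%, against 4.97% of all genes) and 0 rose by edgeR (3.64% of all genes), with 3 higher at an unadjusted p under 0.05, 2 called higher by DESeq2 and 0 by limma voom. *Fermt2*, or kindlin-2, which binds and helps activate integrin β chains, had 1387, 1389, 1294 and 1297 normalized counts in the controls and 767, 907, 854 and 814 in the CKO. Its groups were well apart, with a log2FC of -0.68 (adjusted p = 1.1e-05). *Tns2*, a tensin (144 ± 19.8 and 71.9 ± 7.80 normalized counts), and the α-actinins *Actn4* (log2FC -0.33) and *Actn1* (-0.51), which link adhesions to actin, also fell. The count of this list changed when 1 library was left out: without control replicate 2, 1 gene remained past the cutoff, and without control replicate 1 or 4 or any 1 CKO replicate there were 2, while without control replicate 3 there were 6.

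Ligands of integrins outside the basement membrane had 13 genes tested, of which 1 rose and 2 fell (23.1% called, against 8.61% of all genes). *Edil3*, whose RGD motif binds αv integrins, had 1332 ± 54.8 normalized counts in the controls and 1914 ± 60.8 in the CKO (log2FC 0.53, adjusted p = 2.3e-05). *Mfge8*, an αvβ5 and αvβ3 ligand that bridges to phosphatidylserine, had 589.9 ± 49.5 and 344 ± 37.7 (-0.78, adjusted p = 7.6e-05). *Fbn2*, a fibrillin of microfibrils, had 2725, 2763, 1215 and 2263 in the controls and 536, 570.3, 671 and 769 in the CKO (-1.82, adjusted p = 1.1e-04), with control replicate 3 the lowest control, as for *Lama5*, *Lamc1* and *Itga4*. Without control replicate 3, 5 of the 13 were called, with 11.2% of all genes called at that setting.

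Of 22 tested genes for proteins that hold or glycosylate dystroglycan, 1 rose, which is 4.55%, near the 3.64% of all genes that rose. *Dtna*, α-dystrobrevin, had 321 ± 29.0 normalized counts in the controls and 474 ± 29.7 in the CKO (log2FC 0.56, adjusted p = 3.8e-04). It lost the call without control replicate 2 and without CKO replicate 2, 3 or 4, leaving 0 of the list called, and without control replicate 3 there were 3. Over the list the log2FC ranged from -0.49 to 0.56, with 0 falling by edgeR (3 lower at an unadjusted p under 0.05, 0 called lower by DESeq2 or limma voom) and with a median of -0.10.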

How the data were processed

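Poly(A) RNA of both retinas of each embryo was made into libraries with a TruSeq kit that does not record strand, and sequenced as 50 cycle single-end reads. Per the study's methods and the submitters' notes, the authors aligned reads with TopHat 2 to mm10 and deposited raw counts per gene from HTSeq. Cufflinks is also named, while the sources used here do not give versions, the annotation release or the strand setting of the counting. The columns were assigned to samples by the library number in the labels.

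From the counts, edgeR 4.0.16 (R 4.3.3) was run with TMM scaling and the quasi-likelihood test on the 4 control and 4 CKO samples, with genotype as the only term, keeping genes that reached 20 normalized counts in 3 or more samples. Genes were called at a Benjamini-Hochberg adjusted p under 0.001 over all 13891 genes. The filter and cutoff follow the study, which used DESeq2; DESeq2 1.42.0, limma 3.58.1 and sva 3.50.0 served as alternatives. Intervals are 95%. Normalized counts, also those of the filter, are counts divided by the median-of-ratios size factors of DESeq2. TMM scaling entered the edgeR test and the levels per length. The latter used the summed exons of GENCODE M21 (GRCm38). The steps were tested on simulated data.

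The integrin, laminin, nidogen, agrin, perlecan and dystroglycan genes are named, except for an item that is not reported here, and up to 5 called genes of each other list. Gene lists and members were chosen with earlier results of these data known. Each replicate was 1 embryo; per the study's methods, the embryos of each genotype came from 3 litters taken on 2 days in a row, so embryos share litters and days, and the sources used here do not tie samples to them. Total counts of 13143587 to 19099937 per sample and the spread among embryos both limit the precision. Embryo sex, read from sex-linked genes (2 female controls, 1 female CKO), was a term in 1 alternative. Leaving out control replicate 3 and CKO replicate 1 together was chosen after seeing the data. Other alternatives were scaling, the filter, limma voom, a surrogate variable, a replicate block, a cutoff of 0.05 and leaving out each replicate.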

Additional observations from a re-analysis of the deposited data

Results flagged for a closer look

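In 4 of 58 groups of 4 samples tested, 1 sample lay far from the other 3, and chance alone flags about 1 in 20 groups. *Nid2* in CKO replicate 4 had 104 normalized counts, above 35.0 to 44.9 in the other CKO samples, and its exons overlap those of the more abundant *Rtraf*. *Lama3* in control replicate 2 had 26.0, below 36.5 to 38.3 in the other controls. *Itgb1* in CKO replicate 1 had 2718, below 3176 to 3216 in the other CKO samples. *Lamb2* in CKO replicate 2 had 741, below 815 to 829 in the other CKO samples, and all 4 CKO values of *Itgb1* and *Lamb2* were below all controls.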

How the results depend on the processing

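No log2FC of the 14 genes of the group that differed at an adjusted p under 0.05 changed sign under any alternative, and *Itgb5*, *Itgb8* and *Itga6* passed the cutoff under all 19. The alternative cutoff of 0.05 reads the same fit, so it could neither change a log2FC nor undo a call. Of the integrin, laminin and linker genes, 5 were called, compared with 11 by DESeq2, 12 without the filter, 3 with the replicate block, 9 with 6 samples left, 14 at an adjusted p under 0.05, and 3 to 8 with 1 replicate left out. Over all genes, 1196 were called, compared with 2390, 2055, 676, 2104 and 4619 under those settings in that order, and 686 to 1553 with 1 replicate left out. For the other basement membrane proteins the count was 6, against 11 by DESeq2, 12 without the filter, 11 with 6 samples left, 12 at 0.05, and 6 to 10 with 1 replicate left out. For the dystroglycan complex it was 1, against 0 with the replicate block, 3 with 6 samples left, 4 at 0.05, and 0 to 3. For the integrin adhesion complex it was 4, against 9 by DESeq2, 7 without the filter, 2 with 1 surrogate variable, with embryo sex and with the replicate block, 7 with 6 samples left, 10 at 0.05, and 1 to 6. For the integrin ligands it was 3, against 6 by DESeq2, without the filter and with 6 samples left, 9 at 0.05, and 3 to 5. The cause of these differences was not tested. *Lama5* and *Lamb2* lost the call with the replicate block (adjusted p = 0.00136 and 0.00161). Samples with the same replicate number did not deviate together (correlation -0.154 to 0.142, with 3 of 8 samples closest to their own number), so the numbers do not pair the samples. Another scaling moved the median of all genes by at most 0.026 (log2), in size, from the main one. Depth limits the 13 genes below the filter, which had at most 76 reads over a group.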
